A study of Rattus norvegicus with 42 samples.

Results

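The genes described here are 31 genes of fatty acid oxidation and ketogenesis in the liver of the rat, picked by name out of 26258 named genes in the table of RNA polymerase II occupancy. They comprise 15 genes of mitochondrial β-oxidation and ketone body formation, 8 genes of peroxisomal oxidation, and 8 genes that supply fatty acids to these pathways or control their use. Their Ensembl identifiers found all 31 in the table of mRNA counts, and 30 of them were among the 14092 genes kept for testing, those above 10 reads summed over the 12 libraries. The exception was Acot1, which had 1 read in all 12 libraries together, and which also carried no polymerase tags in either of its regions. Occupancy of the elongating polymerase was therefore followed for 30 of these genes among 16500 genes with tags, and 40 of 3981 binding regions of the glucocorticoid receptor (GR) were centred within 50 kb of the start of 21 of them.

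All animals were male Sprague Dawley rats that had been adrenalectomised, so that they made no corticosterone (CORT) of their own. Every animal, controls included, received carprofen and dexamethasone around surgery and then corticosterone in saline drinking water during recovery, which was withdrawn before the experiment. Infusions were intravenous and lasted 3 h, or to 140 min in groups sampled then. PULS animals received CORT for 20 min in every 60 min, and VEH animals received the carrier alone. CONS animals received a dose matched over 3 h, at a constant rate after a short, faster start. For GR and for polymerase phosphorylated at serine 2 of its tail repeat (pSer2 Pol2, the elongating form), the groups were PEAK_140 and NADIR_180 from PULS animals, CONS_140, CONS_180, and VEH, the numbers being minutes from the start. Each held 2 libraries, and each library pooled the liver of 6 rats; VEH held 1 library from 140 min and 1 from 180 min of pulsed carrier. mRNA was measured at 180 min only, in 3 libraries each of PULS CORT, PULS VEH, CONS CORT and CONS VEH. The labels do not say which animals gave the RNA libraries, so p-values measure the spread between libraries.

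Hepatocytes take up fatty acids, join them to coenzyme A and either export them or oxidise them. Long chains enter mitochondria through the carnitine shuttle and are shortened in cycles of dehydrogenation, hydration, dehydrogenation and thiolysis, and the acetyl-CoA that results can be turned into ketone bodies during fasting. Peroxisomes shorten very long and branched chains, including phytanic acid, whose methyl branch is first removed by α-oxidation. The nuclear receptor PPARA and its coactivators drive many of these genes, and glucocorticoids act on the fasting liver through GR, a receptor that binds DNA when it holds hormone.

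RNA libraries held 3956379 to 7777219 reads in genes, of which albumin took 7.07 to 11.8% and the 31 genes 1.11 to 1.33%. The pSer2 Pol2 libraries held 4938473 to 9326927 tags and the GR libraries 2051977 to 6715803. In CPM, counts scaled to a common library size, the summed level of 6 hepatocyte markers was 131660 to 141080 in CONS CORT, 87865 to 132650 in CONS VEH, 125220 to 143070 in PULS CORT and 123340 to 127580 in PULS VEH. Of the CONS VEH libraries, replicates 1 and 2 were low, at 92638 and 87865. Cps1 and Tat of this list were themselves raised by CORT, by 1.18 and 1.82 on the log2 scale in CONS. The summed level of 6 stellate cell markers was 444 to 501 in CONS CORT, below the 530 to 641 of CONS VEH, and 487 to 689 in PULS CORT against 577 to 759 in PULS VEH. Most of that sum was Col3a1 and Reln (medians of 394.7 and 167.5 CPM), and 1 stellate marker, Dcn, was raised in CONS (1.16). Marker sums of Kupffer cells, endothelial cells, cholangiocytes and blood cells overlapped between CORT and VEH, except that 3 cholangiocyte markers summed to 11.5 to 15.8 in PULS CORT and 8.88 to 11.2 in PULS VEH. The defining markers Cd5l, Pecam1, Krt19, Sox9, Cd3e, Cd3g and Cd79a had too few reads to be tested or were not listed. In whole liver, fewer cells of a type and less RNA per cell cannot be told apart, and the part of these shifts in the results was not tested.

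Promoter sequences were available for 27 of the 31 genes from RefSeq (build GRCr8, 250 bases before to 50 after the start), a newer build than the rn6 of the deposited regions, and RefSeq starts may differ from those used for the regions. The letters GNACA, any 3 bases, TGTNC (a GR element) were found on either strand in 0 of these 27 promoters and in 147 of 33469 promoters (0.439%). The letters AGGNCA, any 1 base, AGGNCA (a PPARA element) were found in 1 of the 27, that of Fabp1, and in 139 of 33469 (0.415%). A match describes letters and not a bound site, and no match says only that these letters are not in the window. The 4 promoters below are those of Fabp1 (chr4:104749090-104749389, plus strand), with the match in capitals and its first base 77 bases before the start on the minus strand, of Hacl1 (chr16:6869361-6869660, minus strand), whose mRNA had the highest fold changes of the 30, of Phyh (chr17:78255596-78255895, minus strand), with a GR region centred at its start, and of Pdk4 (chr4:34568280-34568579, minus strand), with a GR region 170 bases upstream.
Fabp1: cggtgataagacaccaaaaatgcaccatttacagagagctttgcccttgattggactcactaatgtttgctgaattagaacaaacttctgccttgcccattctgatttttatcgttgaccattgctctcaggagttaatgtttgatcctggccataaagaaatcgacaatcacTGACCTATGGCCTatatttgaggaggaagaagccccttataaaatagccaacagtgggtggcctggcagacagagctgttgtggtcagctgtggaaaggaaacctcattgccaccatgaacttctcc
Hacl1: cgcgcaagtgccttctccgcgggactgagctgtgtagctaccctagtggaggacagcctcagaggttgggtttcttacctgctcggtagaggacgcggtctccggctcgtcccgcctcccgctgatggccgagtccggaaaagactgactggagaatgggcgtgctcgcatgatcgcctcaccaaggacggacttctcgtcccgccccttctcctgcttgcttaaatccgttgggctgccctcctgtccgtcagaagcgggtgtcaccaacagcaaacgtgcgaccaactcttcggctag
Phyh: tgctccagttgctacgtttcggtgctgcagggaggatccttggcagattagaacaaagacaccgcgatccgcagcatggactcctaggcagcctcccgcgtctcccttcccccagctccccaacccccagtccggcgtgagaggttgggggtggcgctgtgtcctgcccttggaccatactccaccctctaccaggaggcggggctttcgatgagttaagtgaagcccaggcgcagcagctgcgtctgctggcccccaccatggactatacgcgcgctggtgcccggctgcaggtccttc
Pdk4: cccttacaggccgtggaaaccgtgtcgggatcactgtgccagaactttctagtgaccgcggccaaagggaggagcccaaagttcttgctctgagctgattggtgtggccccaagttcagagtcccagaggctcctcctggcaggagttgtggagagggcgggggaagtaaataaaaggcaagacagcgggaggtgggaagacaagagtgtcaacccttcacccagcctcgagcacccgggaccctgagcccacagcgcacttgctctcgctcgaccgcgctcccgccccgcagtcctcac

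The first comparison asked which of the genes changed their mRNA after 3 h of pulsed CORT. Genes are termed raised or lowered, or called, where the p adjusted over all genes tested (Benjamini-Hochberg) was under 0.05 and the change exceeded 1.5-fold, and fold changes are given as log2 values ± SE. In PULS CORT against PULS VEH, 4 of 30 genes were raised and 0 lowered by edgeR, where 1.79% of all genes tested were raised and 2.44% lowered. Hacl1, Phyh and Ehhadh of the peroxisomal genes rose, as did Cpt2 of the mitochondrial genes. The median of the 30 was 0.11, with 22 above 0, and that of all genes was -0.01. By class, the median was 0.41 for 8 peroxisomal genes (3 raised, all 8 above 0), 0.11 for 15 mitochondrial genes (1 raised, 12 above 0) and -0.13 for the 7 tested genes of supply and control (0 called by edgeR, 3 at an unadjusted p below 0.05, 2 above 0). Over all genes, 2793 of 14092 were at an unadjusted p below 0.05 in this comparison. The difference between classes was not tested.

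In CONS CORT against CONS VEH, 4 of 30 genes were raised and 3 lowered by edgeR, where 4.45% of all genes were raised and 4.75% lowered. Hacl1, Phyh, Cpt2 and Cpt1a rose, and Bdh1, Acsl1 and Pdk4 fell. The median of the 30 was 0.03, with 16 above 0, against -0.01 for all genes. Peroxisomal genes had a median of 0.26 (2 raised, 0 lowered, 5 of 8 above 0), mitochondrial genes 0.05 (2 raised, 1 lowered, 9 of 15 above 0), and genes of supply and control -0.46 (0 raised, 2 lowered, 2 of 7 above 0).

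**Figure D1:**
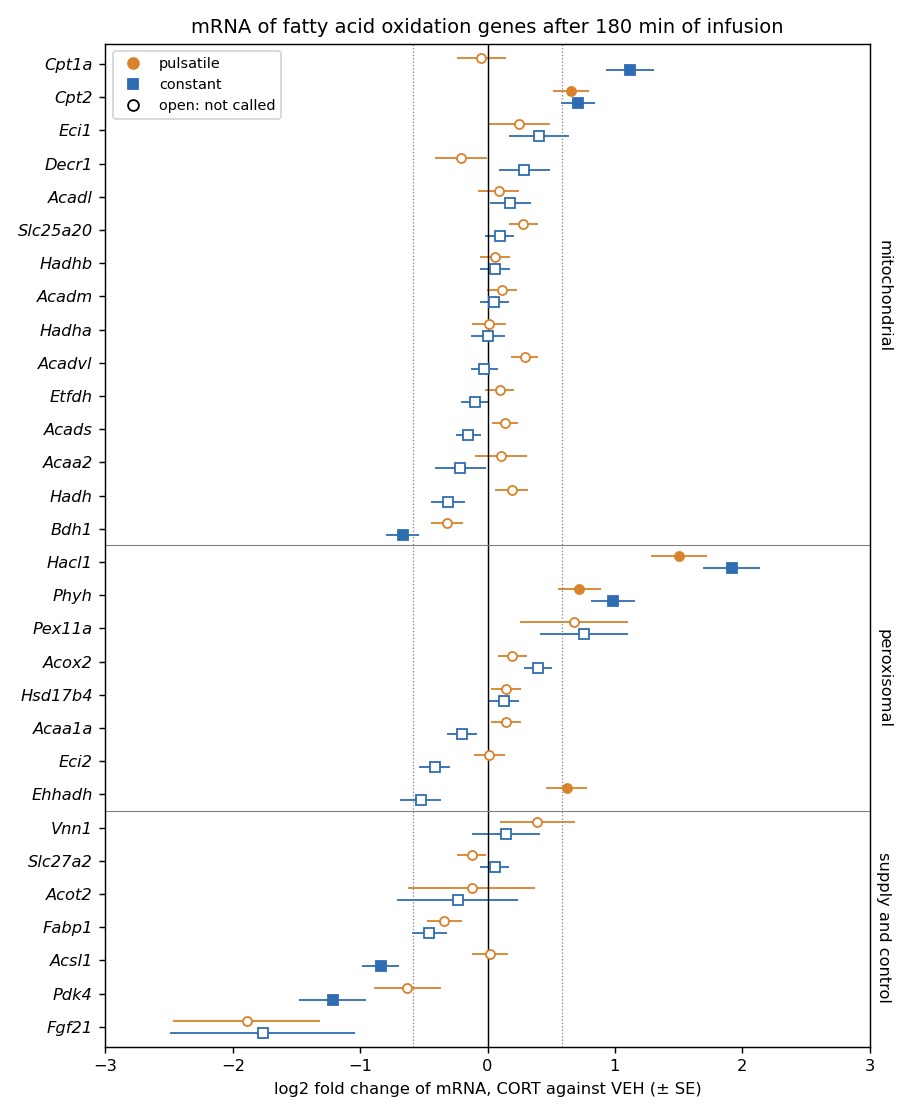
Log2 fold change of mRNA (CORT against the VEH of the same infusion pattern, bars are SE) for the 30 genes with enough reads, ordered within class by the constant response; circles are pulsatile and squares constant infusion, filled symbols are called, and dotted lines mark 1.5-fold. Hacl1 lies farthest right in both patterns, at 1.5 and 1.92, and Cpt1a, Acsl1 and Ehhadh lie apart between the patterns.

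Of the peroxisomal genes, those of α-oxidation had the highest fold changes. Hacl1, 2-hydroxyacyl-CoA lyase, which cleaves the hydroxylated branched chain, was at 174, 233 and 157 CPM in PULS VEH, 382, 682 and 534 in PULS CORT, 198, 200 and 262 in CONS VEH, and 621, 1031 and 839 in CONS CORT. All CORT libraries lay above all VEH libraries. The group means were 188 ± 39.9 CPM (SD, n = 3) in PULS VEH and 533 ± 150 (SD, n = 3) in PULS CORT, and 220 ± 35.9 and 830 ± 205 in CONS VEH and CONS CORT. Its mRNA rose by 1.5 ± 0.22 in PULS (edgeR adjusted p = 0.000805) and by 1.92 ± 0.22 in CONS (edgeR adjusted p = 2.52e-05). The constant response exceeded the pulsatile one by 0.41 ± 0.30, which was not called (edgeR adjusted p = 0.61).

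Phyh, phytanoyl-CoA hydroxylase, carries out the step before Hacl1. It was at 879, 721 and 541 CPM in PULS VEH, 1362, 1089 and 1081 in PULS CORT, 841, 685 and 1001 in CONS VEH, and 1640, 1713 and 1643 in CONS CORT. The CORT and VEH libraries of each pattern did not overlap, and the 3 CONS CORT libraries lay close together and above every other library. The rise was 0.72 ± 0.17 in PULS (edgeR adjusted p = 0.0217) and 0.98 ± 0.17 in CONS (edgeR adjusted p = 0.00105).

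Ehhadh, the L-bifunctional enzyme that hydrates and dehydrogenates chains in the peroxisome, was at 82.2, 90.4 and 69.9 CPM in PULS VEH and 113, 136 and 124 in PULS CORT. It was at 115, 152 and 169 in CONS VEH and 92.8, 86.6 and 123 in CONS CORT. The PULS CORT libraries lay above PULS VEH, the CONS CORT and CONS VEH libraries overlapped, and the CONS VEH libraries lay above the PULS VEH libraries. The change was 0.62 ± 0.16 in PULS (edgeR adjusted p = 0.0346), -0.52 ± 0.16 in CONS (edgeR adjusted p = 0.0406, below 1.5-fold and so not called), and 0.84 ± 0.16 between CONS VEH and PULS VEH (edgeR adjusted p = 0.2, not called).

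The other peroxisomal genes were not called in either pattern. Acox2, the oxidase of branched-chain acyl-CoA and bile acid intermediates, was at 503 to 560 CPM in PULS VEH, 563 to 637 in PULS CORT, 495 to 591 in CONS VEH and 680 to 754 in CONS CORT. Its CONS change of 0.40 ± 0.11 (edgeR adjusted p = 0.0288) and that of the enoyl-CoA isomerase Eci2, -0.41 ± 0.12 (edgeR adjusted p = 0.0327), passed the p threshold but were below 1.5-fold. Hsd17b4, the D-bifunctional enzyme, changed by 0.14 and 0.13 in PULS and CONS, and the thiolase Acaa1a, whose reads may be shared with its near-identical copy Acaa1b, by 0.14 and -0.20. Pex11a, a membrane protein that acts in peroxisome division, had 2.49 to 16.5 CPM and changes of 0.68 ± 0.42 and 0.76 ± 0.35, its libraries being widely spread.

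Among mitochondrial genes, those called acted in the carnitine shuttle or on ketone bodies. Cpt1a, the carnitine palmitoyltransferase of the outer membrane and the gate for long-chain entry, was at 175, 247 and 211 CPM in PULS VEH, 231, 196 and 184 in PULS CORT, 216, 119 and 167 in CONS VEH, and 436, 338 and 320 in CONS CORT. All 3 CONS CORT libraries lay above the other 9, which overlapped one another. It rose by 1.12 ± 0.19 in CONS (edgeR adjusted p = 0.000893) and differed by -0.05 ± 0.19 in PULS (edgeR adjusted p = 0.93).

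Cpt2, its partner on the inner membrane, was at 21.4, 18.3 and 16.4 CPM in PULS VEH, 29.4, 27.7 and 31.3 in PULS CORT, 26.6, 20.7 and 24.4 in CONS VEH, and 40.8, 34.6 and 43.0 in CONS CORT. CORT libraries lay above the VEH libraries of their own pattern. The rise was 0.65 ± 0.14 in PULS (edgeR adjusted p = 0.0138) and 0.71 ± 0.13 in CONS (edgeR adjusted p = 0.00196). Slc25a20, the carrier that exchanges acylcarnitine for carnitine between them, was at 57.0 to 90.5 CPM and changed by 0.28 ± 0.11 and 0.09 in PULS and CONS, neither called.

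The enzymes of the β-oxidation spiral itself were not called in any RNA comparison. The acyl-CoA dehydrogenases Acadvl, Acadl, Acadm and Acads, which act on very long, long, medium and short chains, changed by 0.29, 0.09, 0.11 and 0.14 in PULS and by -0.02, 0.18, 0.05 and -0.15 in CONS. Hadha and Hadhb, the paired subunits of the trifunctional protein, which are divergent neighbours, changed by 0.01 and 0.06 in PULS and by 0.00 and 0.06 in CONS. Hadh, the hydroxyacyl-CoA dehydrogenase of shorter chains, changed by 0.19 and -0.31, and the thiolase Acaa2 by 0.11 and -0.21. Etfdh, which passes electrons on to ubiquinone, changed by 0.10 and -0.10, and Decr1 and Eci1, needed for unsaturated chains, by -0.21 and 0.25 in PULS and by 0.29 and 0.40 in CONS. Acads was at 73.9 to 75.9 CPM in PULS VEH and 79.1 to 85.5 in PULS CORT, and at 80.9 to 88.7 in CONS VEH and 70.7 to 80.7 in CONS CORT, so its groups lay apart in opposite directions by small amounts.

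Bdh1, which interconverts acetoacetate and 3-hydroxybutyrate, was the mitochondrial gene that fell. It was at 291, 322 and 284 CPM in PULS VEH, 239, 244 and 236 in PULS CORT, 350, 259 and 375 in CONS VEH, and 208, 200 and 212 in CONS CORT. CORT libraries lay below VEH libraries in both patterns. It fell by 0.67 ± 0.13 on the log2 scale in CONS (edgeR adjusted p = 0.00218), and the PULS difference of -0.32 ± 0.13 was not called (edgeR adjusted p = 0.167). Without CONS VEH replicate 3, the CONS difference was -0.56, below 1.5-fold.

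**Figure D2:**
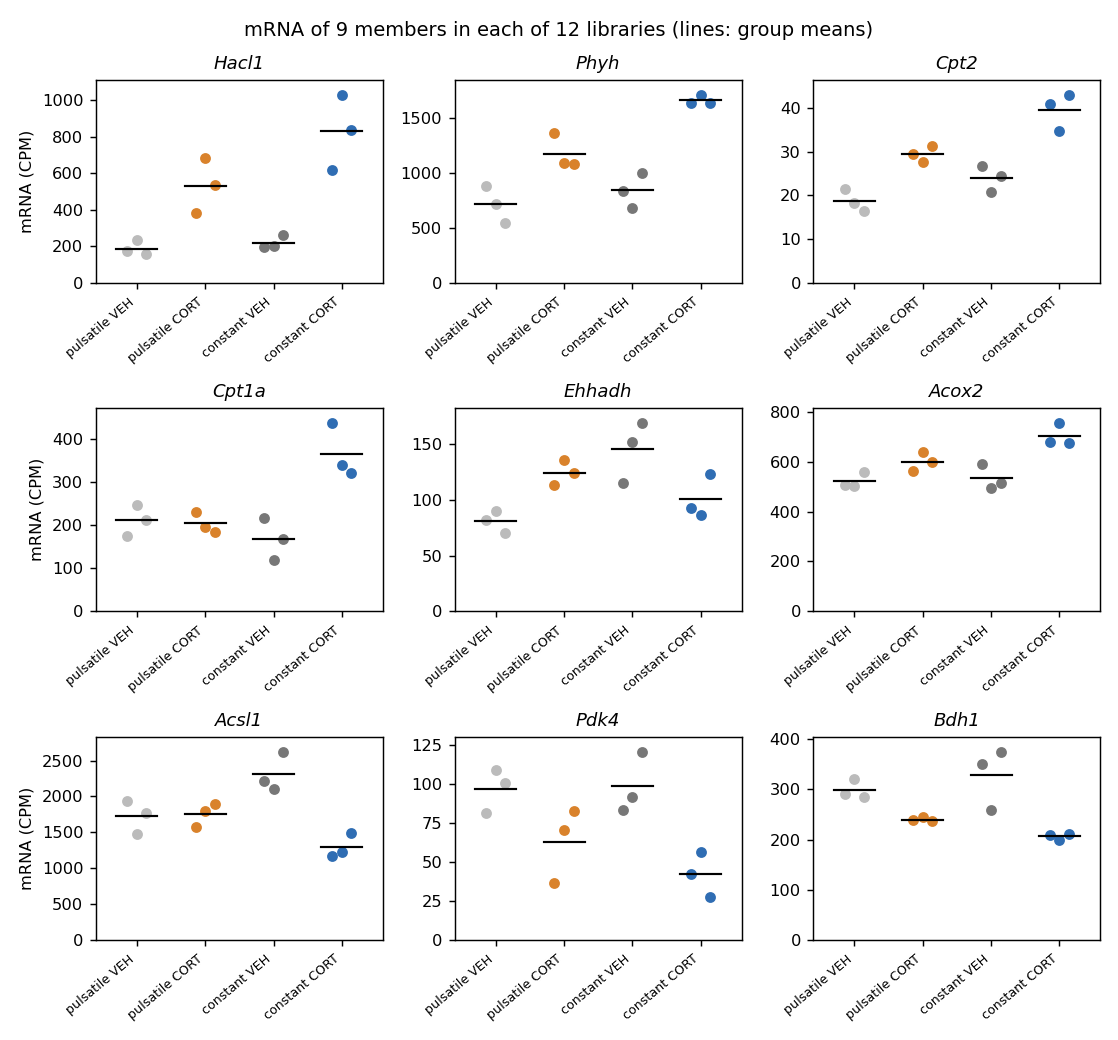
mRNA level (CPM, linear axis from 0) of 9 genes in each of the 12 RNA libraries at 180 min; points are libraries and lines are group means of 3. Hacl1, Phyh and Cpt2 are higher in CORT than in VEH under both patterns, the 3 CONS CORT libraries of Cpt1a (320 to 436) lie above the other 9, and those of Acsl1 (1164 to 1485) lie below CONS VEH.

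Of the genes of supply and control, Acsl1 and Pdk4 fell in CONS. Acsl1, the long-chain acyl-CoA synthetase that primes fatty acids, was at 1937, 1476 and 1763 CPM in PULS VEH, 1570, 1791 and 1893 in PULS CORT, 2217, 2098 and 2623 in CONS VEH, and 1164, 1227 and 1485 in CONS CORT. The PULS libraries overlapped, whereas CONS CORT lay below CONS VEH. The fall was 0.84 ± 0.14 on the log2 scale (-0.84, edgeR adjusted p = 0.000838), and the PULS difference was 0.02 ± 0.14 (edgeR adjusted p = 0.96).

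Pdk4, the kinase that shuts off pyruvate dehydrogenase and so spares glucose, was at 81.5, 109 and 100 CPM in PULS VEH, 36.2, 70.2 and 82.5 in PULS CORT, 82.9, 91.5 and 121 in CONS VEH, and 42.0, 56.4 and 27.6 in CONS CORT. CONS CORT lay below CONS VEH, and the PULS groups overlapped in 1 library. It differed by -1.22 ± 0.26 in CONS (edgeR adjusted p = 0.00542) and by -0.63 ± 0.26 in PULS (edgeR adjusted p = 0.187).

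Fabp1, the fatty acid-binding protein of the liver, was at 3322 to 3518 CPM in PULS VEH and 2180 to 3051 in PULS CORT, and at 3011 to 3556 in CONS VEH and 2151 to 2565 in CONS CORT. Its CORT libraries lay below VEH in both patterns, with differences of -0.34 ± 0.14 (edgeR adjusted p = 0.168) and -0.46 ± 0.14 (edgeR adjusted p = 0.0375), neither above 1.5-fold. Fgf21, a fasting hormone made by hepatocytes, was at 1.32 to 3.08 CPM in PULS VEH and 0.192 to 0.989 in PULS CORT, and at 0.543 to 1.32 in CONS VEH and 0.141 to 0.358 in CONS CORT. Differences of -1.89 ± 0.58 and -1.77 ± 0.73 were not called at these low levels (edgeR adjusted p = 0.0693 and 0.136). Slc27a2, a synthetase for very long chains, changed by -0.12 and 0.06, Vnn1, a pantetheinase, by 0.39 and 0.15, and Acot2, a mitochondrial thioesterase whose reads may be shared with Acot1, by -0.13 and -0.23.

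The calls under PULS rested on few libraries. When the 12 libraries were left out in turn, Hacl1 kept its call in all 12 fits, Cpt2 in 11, Phyh in 9 and Ehhadh in 7. The Ehhadh call was lost without any 1 of the 3 PULS CORT libraries or without PULS VEH replicate 1 or 3, at an edgeR adjusted p of up to 0.134, and the Phyh call without PULS CORT replicate 1 or PULS VEH replicate 2 or 3. Leaving out PULS VEH replicate 3 left 1 of the 4 calls, Hacl1, and leaving out PULS CORT replicate 1 left 2, Hacl1 and Cpt2. The calls under CONS numbered 6 to 8 when any 1 library was left out.

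The second comparison asked whether the response itself differed between the patterns, tested as the constant response minus the pulsatile one. By edgeR, 0 of 30 genes were called, where 0.0284% of all genes were called. At an unadjusted p below 0.05 were 5 of the 30 and 1749 of all 14092 genes. Cpt1a differed most upward, by 1.17 ± 0.27 (edgeR adjusted p = 0.0887), and Ehhadh and Acsl1 downward, by -1.14 ± 0.23 (edgeR adjusted p = 0.07) and -0.86 ± 0.20 (edgeR adjusted p = 0.0888). These same 3 genes were called by DESeq2 (adjusted p = 0.00468, 0.00113 and 0.00236), by edgeR with no filter on low counts, and by edgeR without CONS VEH replicate 1. The share of all genes called was not counted in those fits, so these calls cannot be set against it.

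The VEH groups were compared because the responses are read against them. Between CONS VEH and PULS VEH, 0 of 30 genes and 0% of all genes were called by edgeR. At an unadjusted p below 0.05 were 6 of the 30 and 1286 of all 14092 genes. Acsl1 differed by 0.42 ± 0.14 and Cpt1a by -0.33 ± 0.19 (edgeR adjusted p = 0.4 and 0.61). DESeq2, edgeR with no filter, and edgeR without CONS VEH replicate 1 each called 1 gene of the 30, Ehhadh, at 0.85, 0.84 and 0.99. How many of all genes those fits called was not counted. The median difference was 0.20 over the 30 genes and -0.01 over all genes, and 26 of the 30 were above 0, among them all 8 peroxisomal and 14 of 15 mitochondrial genes.

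A further 102 genes of these pathways were listed, of which 92 had enough reads. In PULS, 3 of them were raised and 1 lowered, and in CONS 6 were raised and 5 lowered, beside 1.79% and 2.44% of all genes raised and lowered in PULS and 4.45% and 4.75% in CONS. Their medians were 0.09 and -0.02. The transcription factor Ppara was at 73.6 to 109 CPM in PULS VEH, 90.8 to 138 in PULS CORT, 49.4 to 147 in CONS VEH and 207 to 303 in CONS CORT, and rose by 1.5 ± 0.28 in CONS (edgeR adjusted p = 0.00197). Its coactivators Ppargc1a and Ppargc1b rose by 2.93 ± 0.21 (edgeR adjusted p = 1.83e-07) and 1.23 ± 0.19 (edgeR adjusted p = 0.000477) in CONS. Ppargc1a also rose by 0.98 ± 0.21 in PULS (edgeR adjusted p = 0.0122), and its responses differed by 1.95 ± 0.29 (edgeR adjusted p = 0.0323), the only call among the 92 for that comparison.

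Of the enzymes in that list, Acsl4, a synthetase that prefers arachidonate, rose by 0.76 ± 0.18 in PULS (edgeR adjusted p = 0.025) and 1.25 ± 0.18 in CONS (edgeR adjusted p = 0.000251). Hsd17b10, a mitochondrial dehydrogenase, rose by 0.65 ± 0.11 in PULS (edgeR adjusted p = 0.00215). Pcca, a subunit of the carboxylase that handles propionyl-CoA from odd and branched chains, rose by 1.15 ± 0.12 in CONS (edgeR adjusted p = 1.53e-05), and the thioesterase Acot12 by 0.67 ± 0.20 (edgeR adjusted p = 0.0382).

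Amacr, the racemase that prepares branched chains for β-oxidation, was at 280, 662 and 290 CPM in PULS VEH and 186 to 210 in PULS CORT. It was at 385 to 495 in CONS VEH and 123 to 231 in CONS CORT. Amacr was called lowered in both patterns, by -1.05 ± 0.27 (edgeR adjusted p = 0.0351) and -1.35 ± 0.27 (edgeR adjusted p = 0.00351). PULS VEH replicate 2 lay far above the other PULS VEH libraries, and fits leaving out a library did not follow this gene. Also lowered in CONS were Acacb, which makes malonyl-CoA, the inhibitor of Cpt1a (-0.83, edgeR adjusted p = 0.0103), the synthetase Acsl3 (-1.03, edgeR adjusted p = 0.000435) and the lipid droplet protein Plin2 (-0.87, edgeR adjusted p = 0.00242).

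Occupancy of pSer2 Pol2 was then compared, as a measure of transcription at the moment of sampling. The values are log2 tags over the first part of each gene, at most 10 kb from the start, and each gene is counted by its region with the highest mean. In PEAK_140 against VEH, limma called 1 of 30 genes raised and 4 lowered, where 0.370% of all genes were raised and 0.588% lowered. Hacl1 rose, and Fabp1, Pdk4, Bdh1 and Hadh fell. The median was -0.35, with 9 of 30 above 0, and -0.05 over all genes. By class it was -0.41 for mitochondrial genes (2 lowered), 0.03 for peroxisomal genes (1 raised) and -0.93 for genes of supply and control (2 lowered).

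The other comparisons held fewer calls, and all 4 against VEH share the same 2 VEH libraries. In NADIR_180 against VEH, limma called 0 of 30, where 0.00606% of all genes were called, and the median was 0.03. At an unadjusted p below 0.05 were 3 of the 30 and 233 of all 16500 genes. In CONS_140 against VEH, Phyh was raised and Fabp1 and Pdk4 were lowered, where 0.624% of all genes were raised and 0.170% lowered, and the median was 0.10 against 0.15 for all genes. In CONS_180 against VEH, Hacl1 was the 1 gene raised, where 0.176% of all genes were raised, and the median was -0.13. After centring every library on its own median, CONS_180 held 5 calls, 2 raised (Hacl1 and Phyh) and 3 lowered (Fabp1, Pdk4 and Bdh1). The share of all genes called after centring was not counted.

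**Figure D3:**
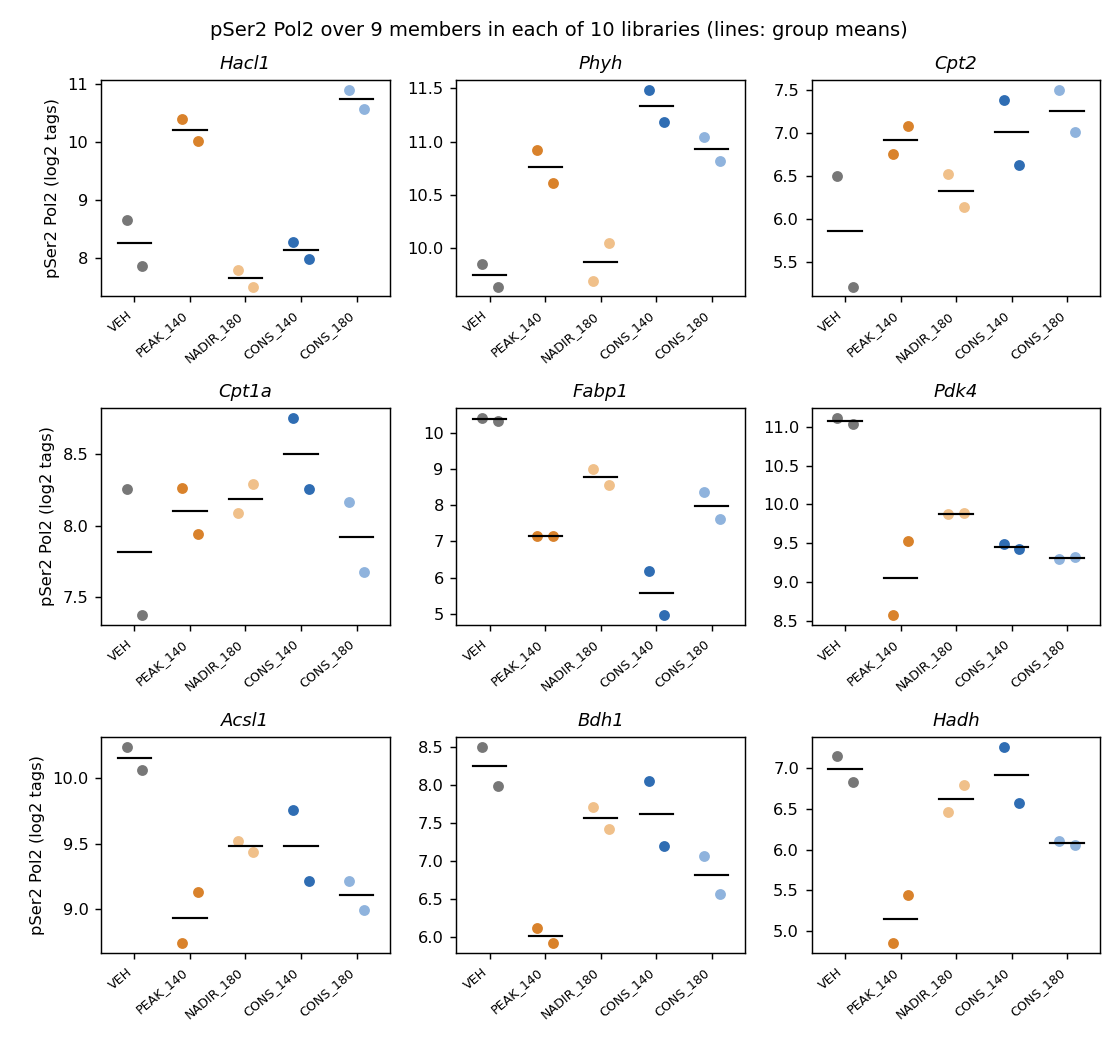
pSer2 Pol2 occupancy (log2 tags) of 9 genes in the 10 libraries; points are libraries, each a pool of 6 rats, and there are 2 in each group. Hacl1 is high in PEAK_140 and CONS_180 (10.01 to 10.90) and lower in the other 3 groups (7.50 to 8.64), while Fabp1 is below VEH in every CORT group.

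Hacl1, in the region chr16:7748189-7758189 (rn6, minus strand), had log2 values of 8.64 and 7.85 in VEH, 10.39 and 10.01 in PEAK_140, 7.79 and 7.50 in NADIR_180, 8.27 and 7.99 in CONS_140, and 10.90 and 10.57 in CONS_180. PEAK_140 and CONS_180 lay above the other groups, which lay close together. It rose by 1.95 ± 0.34 in PEAK_140 (limma adjusted p = 0.0214) and 2.49 ± 0.34 in CONS_180 (limma adjusted p = 0.0162) against VEH. The differences in NADIR_180 and CONS_140 were -0.60 and -0.12.

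Hacl1 was also the gene called between the CORT groups. PEAK_140 exceeded NADIR_180 by 2.56 ± 0.34 (limma adjusted p = 0.00833), where 0.255% of all genes were raised, and CONS_180 exceeded NADIR_180 by 3.09 ± 0.34 (limma adjusted p = 0.00426), where 0.164% were raised. It was the only one of the 30 called in each. Between CONS_140 and CONS_180, 0 of 30 genes and 0% of all genes were called by limma. At an unadjusted p below 0.05 were 4 of the 30 and 502 of all 16500 genes. Hacl1 differed by -2.61 ± 0.34 (limma adjusted p = 0.091). The deviations of same-numbered libraries from their group means correlated at 0.15 to 0.55 over all 12 pairs. With 2 libraries in a group these deviations mirror each other, so the 12 pairs are not independent. The pairing was taken from these same data. With the replicate number as a block over the 8 CORT libraries, the Hacl1 difference between CONS_140 and CONS_180 was called (limma adjusted p = 0.0452). It was also called with the libraries centred on their medians (limma adjusted p = 0.00652), as was Fabp1 (-2.58). Centring also added Fabp1, Bdh1 and Hadh as lowered in PEAK_140 against NADIR_180. The shares of all genes called with the block or after centring were not counted. At 180 min, Hacl1 mRNA was raised in PULS CORT, at the time when occupancy in NADIR_180 was at 7.79 and 7.50.

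Phyh (chr17:77294530-77304530, minus strand) was at 9.85 and 9.64 in VEH, 10.92 and 10.61 in PEAK_140, 9.70 and 10.05 in NADIR_180, 11.49 and 11.18 in CONS_140, and 11.04 and 10.82 in CONS_180. NADIR_180 overlapped VEH and the other CORT groups lay above both. The rise of 1.59 ± 0.27 in CONS_140 was called (limma adjusted p = 0.0193), and differences of 1.02 in PEAK_140 and 1.18 in CONS_180 were not (limma adjusted p = 0.163 and 0.188).

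Fabp1 (chr4:99063181-99066954, plus strand) was at 10.41 and 10.33 in VEH, 7.14 and 7.15 in PEAK_140, 9.0 and 8.55 in NADIR_180, 6.19 and 4.97 in CONS_140, and 8.36 and 7.61 in CONS_180. Every CORT library lay below VEH, and both groups sampled at 140 min lay below both groups sampled at 180 min. It fell by 3.23 ± 0.43 on the log2 scale in PEAK_140 (-3.23, limma adjusted p = 0.00544) and by 4.79 ± 0.43 in CONS_140 (-4.79, limma adjusted p = 0.000618), and its -2.39 in CONS_180 was not called (limma adjusted p = 0.0597). The mRNA of Fabp1 at 180 min differed by less than 1.5-fold in both patterns.

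Pdk4 (chr4:30546814-30556814, minus strand) was at 11.11 and 11.04 in VEH, 8.58 and 9.52 in PEAK_140, 9.87 and 9.89 in NADIR_180, 9.49 and 9.42 in CONS_140, and 9.30 and 9.32 in CONS_180. All CORT libraries lay below VEH. Differences were -2.03 ± 0.32 in PEAK_140 (limma adjusted p = 0.0119), -1.62 ± 0.32 in CONS_140 (limma adjusted p = 0.0477) and -1.77 in CONS_180 (limma adjusted p = 0.0633, not called).

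Bdh1 (chr11:72604176-72614176, minus strand) was at 8.51 and 7.99 in VEH, 6.11 and 5.91 in PEAK_140, 7.71 and 7.41 in NADIR_180, 8.06 and 7.19 in CONS_140, and 7.07 and 6.56 in CONS_180. It was lowest in PEAK_140, where it differed from VEH by -2.24 ± 0.39 (limma adjusted p = 0.0195). Hadh (chr2:236385067-236395067, minus strand) was at 7.15 and 6.83 in VEH, 4.85 and 5.44 in PEAK_140, 6.46 and 6.80 in NADIR_180, 7.27 and 6.58 in CONS_140, and 6.11 and 6.06 in CONS_180. It too was lowest in PEAK_140, with a difference of -1.85 ± 0.37 (limma adjusted p = 0.0392), while its mRNA was not called.

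Cpt1a, whose mRNA rose in CONS, had occupancy of 8.26 and 7.38 in VEH, 8.26 and 7.94 in PEAK_140, 8.08 and 8.29 in NADIR_180, 8.75 and 8.25 in CONS_140, and 8.16 and 7.68 in CONS_180, so that all CORT groups overlapped VEH. Cpt2 was at 6.50 and 5.21 in VEH and between 6.14 and 7.50 in the CORT groups, with a difference of 1.40 in CONS_180 that was not called. Acsl1 was counted by the region chr16:48971980-48981980, which was not called in PEAK_140 (-1.23 ± 0.30, limma adjusted p = 0.117). Its other region, chr16:48993246-49003246, was lowered against VEH by -2.01 ± 0.29 (limma adjusted p = 0.00714) and against NADIR_180 by -1.75 ± 0.29 (limma adjusted p = 0.0237). Occupancy of Vnn1 was -0.48 in 9 of the 10 libraries and 0.26 in CONS_140 replicate 1. That of Ehhadh was 3.08 to 3.73 and that of Fgf21 3.12 to 3.48 over all libraries, and none of these 3 genes, nor Pex11a or Acot2, varied by as much as 1 log2 unit.

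Of 89 further pathway genes with tags, 1 was called in PEAK_140 and 2 in CONS_140 against VEH, beside 0.958% and 0.794% of all genes called in either direction. Cat, the catalase of peroxisomes, was at 10.68 and 10.34 in VEH, 8.41 and 8.27 in PEAK_140, 9.98 and 10.10 in NADIR_180, 10.12 and 9.65 in CONS_140, and 9.15 and 9.09 in CONS_180. It was lowered in PEAK_140 against VEH (-2.17 ± 0.29, limma adjusted p = 0.00528) and against NADIR_180 (-1.71 ± 0.29, limma adjusted p = 0.0254). The raised genes in CONS_140 were Acot12 (1.77 ± 0.35, limma adjusted p = 0.0455) and Slc27a5, a bile acid and fatty acid CoA ligase (2.01 ± 0.37, limma adjusted p = 0.0293). Ppargc1a occupancy was not called. The calls of these further genes were not followed in fits leaving out a library.

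These fits share 1 estimate of the spread over all 5 groups, since each group held 2 libraries. Leaving out any 1 of the 10 libraries left 0 to 2 of the 5 calls in PEAK_140, also when the library was not of the groups compared. Hacl1, Bdh1 and Hadh lost that call in all 10 of these fits, while Fabp1 kept it in 4 and Pdk4 in 2. In CONS_140 the 3 calls became 1 when either VEH, either NADIR_180, either CONS_180 library or CONS_140 replicate 1 was left out, and 6 without CONS_140 replicate 2, which added Acox2, Slc27a2 and Vnn1 as raised; Fabp1 kept its CONS_140 call in all 10 fits. Without CONS_140 replicate 2, 5 genes were called between CONS_140 and CONS_180. The other Hacl1 calls were lost in CONS_180 against VEH without VEH replicate 2 or any NADIR_180, CONS_140 or CONS_180 library, in PEAK_140 against NADIR_180 without PEAK_140 replicate 1, either NADIR_180 library or CONS_140 replicate 2, and in CONS_180 against NADIR_180 without NADIR_180 replicate 1 or any CONS_140 or CONS_180 library. Fitted on just the 4 libraries compared, limma called 0 genes in PEAK_140 or CONS_140 against VEH and between the other groups, and Pdk4 was the 1 gene called in CONS_180 against VEH (-1.77, limma adjusted p = 0.049).

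GR binding was compared last, at the 40 regions centred within 50 kb of a start. Such a region lay near 21 of the 31 genes (67.7%), compared with 4446 of 26258 named genes (16.9%), a description with no test, since genes differ in size, expression and neighbours. They lay near 9 mitochondrial genes (12 regions), 6 peroxisomal genes (14) and 6 genes of supply and control (14), and 2 of the regions were near both Acot1 and Acot2. None lay near Acadl, Acadm, Hadh, Hadha, Hadhb, Bdh1, Acaa1a, Hsd17b4, Fgf21 or Vnn1. The annotation in the file put 18 in introns, 14 between genes and 8 at a promoter, and 6 were centred within 1 kb of a start. The authors called a peak in 29 of the 40 in PEAK_140, 25 in CONS_180, 14 in CONS_140, 0 in NADIR_180 and 2 in VEH.

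Values are log2 tags after subtraction of input, so that many VEH values lie at the floor near or below 0, and a difference from VEH is a fitted value and not a bound. In PEAK_140 against VEH, limma called 29 regions raised and 2 lowered, where 78.6% of all regions were raised and 1.83% lowered. In CONS_140, 21 were raised and 1 lowered, where 64.7% and 0.377% of all regions were. In CONS_180, 24 were raised and 1 lowered, where 67.9% and 0.301% were. In NADIR_180, 3 were raised, where 7.44% of all regions were. The raised shares near these genes were close to or below those of all regions, the lowered ones rest on 1 or 2 regions, and the medians of the 40 were 3.72, 2.61, 3.16 and 0.73 against 4.17, 3.38, 3.46 and 0.84 for all regions in PEAK_140, CONS_140, CONS_180 and NADIR_180.

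The table holds only regions where binding was found, so a rise shared by all of them is part of how it was made. The library medians rose over VEH by 4.62 in PEAK_140, 4.11 in CONS_140, 4.06 in CONS_180 and 1.18 in NADIR_180. After centring every library on its own median, 0 regions were raised and 7, 8, 5 and 0 were lowered, in that order. These are counts, and single regions were not followed between the fits. Rises below are on the values as deposited, relative to those shifts.

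PEAK_140 exceeded NADIR_180 at 24 of the 40 regions, where 68.8% of all regions were raised, and CONS_180 exceeded NADIR_180 at 15, where 49.6% were raised. The counts fell to 14 without PEAK_140 replicate 1 in the former, and to 5 and 7 without CONS_180 replicate 1 or 2 in the latter. Between CONS_140 and CONS_180, 0 of the 40 and 0% of all regions were called by limma. At an unadjusted p below 0.05 were 3 of the 40 and 194 of all 3981 regions. CONS_180 against VEH held 16 calls without VEH replicate 2. By class, 9, 2, 6 and 7 of 12 regions near mitochondrial genes were raised against VEH in PEAK_140, NADIR_180, CONS_140 and CONS_180, with 12, 1, 9 and 11 of 14 near peroxisomal genes and 8, 0, 6 and 6 of 14 near genes of supply and control.

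**Figure D4:**
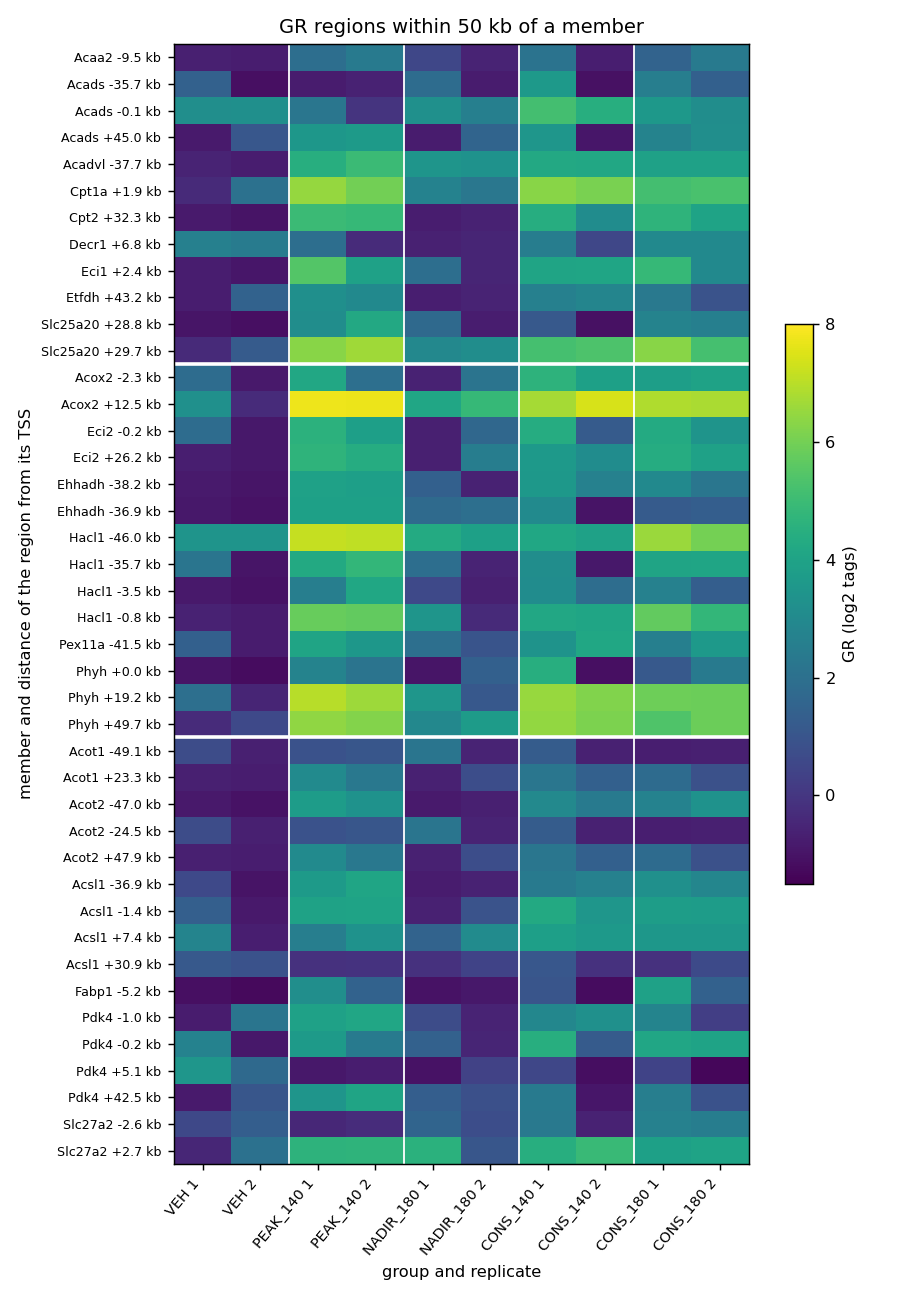
GR signal (log2 tags after input subtraction, colour) in the 10 libraries at the regions within 50 kb of a member gene, 1 row for each region and gene, with the distance from the gene's start; 2 regions near both Acot1 and Acot2 appear under each, so there are 42 rows for 40 regions. PEAK_140 and both CONS groups are bright at most rows, NADIR_180 and VEH are dark at most rows, and the Hacl1 row at -46034 is bright in PEAK_140 and CONS_180 and darker in CONS_140.

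Near Hacl1, 4 regions were found. The region centred at -46034 bases from the start (chr16:7803911-7804536, between genes) was at 3.42 and 3.43 in VEH, 7.18 and 7.10 in PEAK_140, 4.31 and 3.89 in NADIR_180, 4.16 and 3.95 in CONS_140, and 6.57 and 6.03 in CONS_180. Against VEH it rose by 3.72 ± 0.37 in PEAK_140 (limma adjusted p = 5.65e-05) and 2.88 in CONS_180 (limma adjusted p = 0.000302), and its 0.63 ± 0.37 in CONS_140 was not called (limma adjusted p = 0.16). PEAK_140 and CONS_180 were the higher groups here, as for pSer2 Pol2 on Hacl1, though the order within the higher and the lower groups differed. CONS_140 and CONS_180 were not told apart at this region by the test (-2.25, limma adjusted p = 0.15).

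The promoter region of Hacl1, centred at -814 (chr16:7758691-7759316) and nearest to Btd in the file, was at -0.59 and -0.78 in VEH, 5.81 and 5.73 in PEAK_140, 3.45 and -0.35 in NADIR_180, 4.20 and 4.07 in CONS_140, and 5.70 and 4.80 in CONS_180. It was raised in PEAK_140 (6.45 ± 1.05, limma adjusted p = 0.000637), CONS_140 (4.82, limma adjusted p = 0.00361) and CONS_180 (5.94, limma adjusted p = 0.00139). Of the others, the region at -3529 was raised in the same groups (4.31, 3.46 and 2.94), and that at -35687 in PEAK_140 alone (3.91).

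Phyh had 3 regions. The intronic region at +49674 (chr17:77254490-77255223, nearest Ucma) was at -0.34 and 0.59 in VEH, 6.43 and 6.25 in PEAK_140, 2.94 and 3.73 in NADIR_180, 6.47 and 6.14 in CONS_140, and 5.40 and 5.87 in CONS_180. It was raised in every CORT group, by 6.21 ± 0.50 in PEAK_140 (limma adjusted p = 2.5e-05), 3.21 in NADIR_180 (limma adjusted p = 0.00564), 6.18 in CONS_140 and 5.51 in CONS_180. The region at +19207 (chr17:77285011-77285636) rose by 6.09, 5.65 and 5.17 in PEAK_140, CONS_140 and CONS_180. The region at the start itself, +9 (chr17:77304258-77304785), was at 2.74 and 2.14 in PEAK_140, and at 4.44 and -1.12 in CONS_140, and was not called (PEAK_140 3.53 ± 1.61, limma adjusted p = 0.068).

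Cpt1a had 1 region, in an intron at +1899 (chr1:218571097-218571722). It was at -0.36 and 2.06 in VEH, 6.52 and 5.99 in PEAK_140, 2.70 and 2.27 in NADIR_180, 6.30 and 6.10 in CONS_140, and 5.14 and 5.26 in CONS_180. It was raised by 5.41 ± 0.72 in PEAK_140 (limma adjusted p = 0.000236), 5.35 in CONS_140 (limma adjusted p = 0.000315) and 4.35 in CONS_180 (limma adjusted p = 0.00101), and NADIR_180 did not pass (1.64, limma adjusted p = 0.3). GR signal here was thus raised in PEAK_140 as in the CONS groups, whereas the mRNA was called in CONS and not in PULS.

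The region at +32316 from Cpt2 (chr5:127490461-127491086) was at -0.81 and -0.99 in VEH, 4.96 and 4.86 in PEAK_140, -0.74 and -0.57 in NADIR_180, 4.42 and 3.13 in CONS_140, and 4.68 and 4.01 in CONS_180. It was raised by 5.81 ± 0.65 in PEAK_140 (limma adjusted p = 0.000106) and back at the VEH level in NADIR_180. The intronic Acox2 region at +12491 (chr15:18463310-18463961) was raised in PEAK_140 (6.28 ± 0.93, limma adjusted p = 0.000405), CONS_140 (5.60) and CONS_180 (5.36), and that at -2319 in CONS_140 (3.76) and CONS_180 (3.39).

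Over all 3981 regions, the difference of NADIR_180 from VEH was above 0 at 3273, and 7.44% were raised. The medians of the 2 NADIR_180 libraries lay apart, at 1.33 and -0.48. Near these genes, the difference from VEH was above 0 at 31 of the 40 regions and called at 3. The called regions were the Phyh region at +49674, the region at +29749 from Slc25a20 (chr8:117484699-117485324, 2.62, limma adjusted p = 0.0363) and the region at -37719 from Acadvl (chr10:56661876-56662614, 4.02, limma adjusted p = 0.0024), which lies at the promoter of Asgr1. The Acadvl region was at -0.54 and -0.73 in VEH, 4.45 and 4.99 in PEAK_140, 3.44 and 3.33 in NADIR_180, 4.25 and 4.20 in CONS_140, and 3.95 and 3.92 in CONS_180. All CORT libraries lay above VEH, and PEAK_140 exceeded NADIR_180 by 1.33 ± 0.51 (limma adjusted p = 0.0416).

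The remaining regions were raised as follows on the log2 scale. In PEAK_140, CONS_140 and CONS_180 alike, GR signal rose at Eci1 +2395 (5.51, 4.89 and 4.76), Eci2 +26242 (5.35, 4.19 and 4.96), Ehhadh -38225 (4.79, 4.00 and 3.51), Pex11a -41462 (3.47, 3.45 and 2.78), Acsl1 -36878 (4.09, 2.71 and 3.27), Acsl1 -1367 (3.73, 3.62 and 3.52), Slc27a2 +2743 (3.88, 3.91 and 3.17), Acot2 -46950 (4.49, 3.66 and 3.97) and the region shared at Acot1 +23325 and Acot2 +47906 (3.37, 2.51 and 2.03). With the regions described above, 18 of the 40 were raised in all 3 groups. Singly, 78.6%, 64.7% and 67.9% of all regions were raised in PEAK_140, CONS_140 and CONS_180. The share raised in all 3 was not counted over all regions. In PEAK_140 and CONS_180, GR signal rose at Slc25a20 +28784 (4.73 and 3.73), Eci2 -183 (3.75 and 3.39) and Acaa2 -9453 (2.87 and 2.68). Raised in PEAK_140 and CONS_140 was Etfdh +43194 (2.75 and 2.36). Raised in 1 group were Ehhadh -36947 (4.86) and Acads +45028 (3.49) in PEAK_140, and Acsl1 +7409 (2.71) in CONS_140. Of the 40 regions, 7 were called in no comparison against VEH, a share that was not counted over all regions.

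Polymerase fell in PEAK_140 at Fabp1, Pdk4, Bdh1 and Hadh. GR signal rose at the region near Fabp1 and moved both ways near Pdk4, and no region lay near Bdh1 or Hadh. The Fabp1 region at -5170 (chr4:99057699-99058324) was at -1.09 and -1.25 in VEH, 3.19 and 1.5 in PEAK_140, -1.03 and -0.89 in NADIR_180, 1.00 and -1.20 in CONS_140, and 3.93 and 1.44 in CONS_180. It was raised in PEAK_140 (3.52 ± 1.10, limma adjusted p = 0.0161) and CONS_180 (3.86, limma adjusted p = 0.0134), with CONS_140, the group of lowest Fabp1 occupancy, not called (1.07).

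Of 4 regions near Pdk4, those at -989 (chr4:30557606-30558001) and +42479 were raised in PEAK_140, by 3.33 ± 1.14 (limma adjusted p = 0.0233) and 3.64 (limma adjusted p = 0.0181), and that at -170 (chr4:30556669-30557299) was not called. The intronic region at +5118 (chr4:30551622-30551771) ran the other way, at 3.50 and 1.76 in VEH, -0.90 and -0.74 in PEAK_140, -1.03 and 0.37 in NADIR_180, 0.51 and -1.17 in CONS_140, and 0.43 and -1.32 in CONS_180. All CORT libraries lay below both VEH libraries, and the falls were called in PEAK_140 (-3.45 ± 1.04, limma adjusted p = 0.0135), CONS_140 (-2.96, limma adjusted p = 0.0325) and CONS_180 (-3.08, limma adjusted p = 0.0272). The other lowered region was at the Acads promoter, -122 (chr12:47254050-47254675), which was at 3.19 and 3.24 in VEH and 2.23 and -0.07 in PEAK_140 (-2.13 ± 0.78, limma adjusted p = 0.0306). It was lowered in PEAK_140 alone, being at 3.28 and 2.59 in NADIR_180 and 3.57 and 3.17 in CONS_180. Both CONS_140 libraries, at 5.18 and 4.44, lay above VEH.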

How the data were processed

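Per the labels and the methods, the authors trimmed ChIP reads with Trimmomatic 0.36, aligned them to rn6 with bowtie2, removed duplicates with SAMtools and counted tags with HOMER 4.9.1, in merged GR peaks and in transcribed regions limited to 10 kb from the start. The deposited values are log2 tags after subtraction of input, normalization and variance stabilization; the text and the file header give different totals for the GR normalization. For RNA the authors deposited read counts per gene (STAR, featureCounts 1.6.2), whose strand setting is not given in the sources used here; columns of the authors' own comparisons were not used.

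Counts were tested with edgeR 4.0.16 (TMM, quasi-likelihood, 12 libraries in 1 fit, more than 10 reads in all), where SE is the log2 fold change divided by the root of F, and DESeq2 1.42.0 was an alternative. Log2 values were tested with limma 3.58.1 (trended variance, 10 libraries in 1 fit) in R 4.3.3. Calls needed a Benjamini-Hochberg adjusted p below 0.05 over all features and more than 1.5-fold. Scripts were tested on simulated data. All 31 genes are named, further pathway genes where called (1 is not reported here), and GR regions where called against VEH. The members and lists were chosen with earlier results of these data known. GR regions within 50 kb of a start were counted; motifs in them were not searched, as no rn6 genome was used here. Alternatives were other normalizations, filters, windows, library sets, a replicate block and leaving out each library. Same-numbered libraries of different groups had correlations of deviations of -0.05 to 0.08 (RNA), 0.15 to 0.55 (pSer2 Pol2, where the numbers were taken to pair the libraries from the data alone) and -0.03 to 0.02 (GR). One GR CONS_140 library was numbered in accession order.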

Additional observations from a re-analysis of the deposited data

Results flagged for a closer look

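Several results differed between conditions sampled at the same time or between phases of the pulse. Hacl1 pSer2 Pol2 occupancy was 3.09 higher on the log2 scale in CONS_180 than in NADIR_180, both taken at 180 min, and 2.56 higher in PEAK_140 than in NADIR_180, by limma; either call was lost without some single libraries. Cat occupancy differed by -1.71 between PEAK_140 and NADIR_180, a call that was not followed in fits leaving out a library. GR signal near the 31 genes was higher at 24 regions in PEAK_140 than in NADIR_180 and at 15 regions in CONS_180 than in NADIR_180, where 68.8% and 49.6% of all GR regions were raised.

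The response of Ppargc1a mRNA to CORT was 1.95 larger on the log2 scale under constant than under pulsed infusion, by edgeR. This call too was not followed in fits leaving out a library. Acads mRNA was above the VEH of the same pattern in every PULS CORT library and below it in every CONS CORT library. The difference of -0.29 between responses was not called (edgeR adjusted p = 0.42). The VEH groups themselves lay apart, at 73.9 to 75.9 CPM in PULS VEH and 80.9 to 88.7 in CONS VEH. The CORT groups overlapped, at 79.1 to 85.5 in PULS CORT and 70.7 to 80.7 in CONS CORT.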

How the results depend on the processing

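Counts of calls among the 30 genes or 40 regions moved with the processing. No mRNA or pSer2 Pol2 call among the 30 genes turned its direction. Calls of the further pathway genes were not followed in these fits, and the counts below leave them out. For GR, median-centred libraries left 0 regions raised against VEH, and single regions were not followed between the fits. The cause of each move was not tested unless stated. Shares of all genes or regions called were not counted in the alternative fits. Outside the left-out libraries, 51 counts stayed within 1.5 times and 26 moved, while 67 values of named genes kept their call and 12 lost it; 1 of these was Pdk4 pSer2 Pol2 in CONS_140 with no variance trend (limma adjusted p = 0.063) and the others were fits with only the 4 libraries compared. For RNA, no filter and DESeq2 each gave 3 calls for the constant minus the pulsatile response and 1 between VEH groups. For pSer2 Pol2, median-centred libraries gave 5 calls in CONS_180 against VEH, 4 in PEAK_140 against NADIR_180 and 2 between CONS_140 and CONS_180; counting any region of a gene gave 2 in PEAK_140 against NADIR_180, with Acsl1 added. With only the 4 libraries compared, PEAK_140 against VEH, CONS_140 against VEH, PEAK_140 against NADIR_180 and CONS_180 against NADIR_180 each gave 0 (by limma, with fewer libraries to estimate the spread). For GR, median-centred libraries gave 7, 0, 8 and 5 calls in PEAK_140, NADIR_180, CONS_140 and CONS_180 against VEH, 2 in PEAK_140 against NADIR_180 and 0 in CONS_180 against NADIR_180, and only the 4 libraries gave 0 in NADIR_180. A 10 kb window, which holds 18 of the 40 regions, gave 12, 0, 9, 11, 8 and 6 in the same order. Leaving out 1 library at a time gave ranges of 1 to 4 (PULS), 6 to 8 (CONS), 0 to 3 (difference of responses) and 0 to 1 (VEH groups) for RNA. For pSer2 Pol2 they were 0 to 2, 0 to 0, 1 to 6 and 0 to 2 in PEAK_140, NADIR_180, CONS_140 and CONS_180 against VEH, 0 to 1 in PEAK_140 against NADIR_180, 0 to 5 between CONS_140 and CONS_180 and 0 to 1 in CONS_180 against NADIR_180. For GR they were 22 to 32, 2 to 4, 17 to 24 and 16 to 29 against VEH, then 14 to 28, 0 to 0 and 5 to 19. Left-out fits of groups of 2 assume that the lone library varies like the other groups.

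Replicate numbers were shared across groups. The labels tie no replicate number to an animal or a ChIP experiment, and the VEH libraries of the ChIP groups carry none. Same-numbered libraries deviated together for pSer2 Pol2 and not for RNA or GR. Sample titles also hold library numbers, whose meaning is not stated. In GR and pSer2 Pol2 these were lower in PEAK_140 and NADIR_180 than in VEH or CONS groups, and in RNA lower in CORT than in VEH. Any difference that follows them cannot be told apart from the infusion. With the replicate block, RNA gave 4, 7, 0 and 0 calls, as without it. For pSer2 Pol2, over the 8 CORT libraries, the replicate block gave 1 call in PEAK_140 against NADIR_180, 1 in CONS_180 against NADIR_180 and 1 between CONS_140 and CONS_180 (Hacl1, -2.61, limma adjusted p = 0.0452), the only gene call the block changed. For GR, over 6 libraries, it gave 28 and 19 regions in PEAK_140 and CONS_180 against NADIR_180. With 2 libraries in each ChIP group and values at the floor in VEH, small differences in GR or pSer2 Pol2 were not detectable.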
